A study of Mus musculus with 8 samples.

Results

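The 10 immediate early genes described here were examined in dorsal root ganglia (DRGs) of mice that lack α-galactosidase A (α-Gal A), the lysosomal enzyme whose loss causes Fabry disease. They were Fos, Fosb, Junb, Egr1, Arc, Nr4a1, Ier2, Dusp1, Klf4 and Btg2, chosen by name as genes that answer to neuronal activity and to tissue handling, and taken as every non-control probe of the array that carries one of these symbols. This gave 10 probes, 1 for each gene, of 55681 probes on the array. All 10 passed the filter on background, as did 29432 probes of 21063 gene names in all. RNA of DRGs L3 to L5 was hybridised in 1 color to the 8 arrays of 1 slide. The FD group was 4 samples from male α-Gal A(-/0) mice, of strain C57BL/6J by the labels and on a C57BL/6 background by the study's methods, and the wildtype group was 4 samples from male C57BL/6J mice, all 20 to 24 weeks old and without any treatment that the labels name. A sample was the pooled tissue of 2 mice, so that 8 mice stood behind each group, and p-values measure the spread between such pools. The mice of the 2 genotypes came from different inbred colonies, so colony and genotype cannot be told apart in these samples. The time of day and the time between death and freezing of each sample are not given in the sources used here.

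Immediate early genes are transcribed within minutes of a stimulus, without need for new protein, because the transcription factors that switch them on are already present and are activated by phosphorylation. Serum response factor with its ternary complex partners binds CArG boxes in their promoters, and CREB binds the cAMP response element (CRE). Most of their mRNAs are short lived, so that their level follows the recent history of the cells. In sensory neurons they are induced by depolarisation, growth factors and nerve injury, and in any tissue they can be induced by dissection. In DRG tissue they can come from neurons, satellite glia, Schwann cells, vessels or macrophages, and in such bulk RNA a smaller number of cells of a type and less RNA per cell cannot be told apart.

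Of the markers of the tissue, 14 of 14 sensory neuron markers and 8 of 8 satellite glia markers were well above background on all 8 arrays, and 1 of 6 skeletal muscle markers was. Between the groups, 0 of the 14 sensory neuron markers were called higher in FD and 1 lower, beside 2.02% and 1.1% of all genes. The 1 was Snap25 (log2 fold change -0.47, limma adjusted p = 0.00443). The median log2 fold change of the 14 was -0.025, and 5 were above 0. At an unadjusted p under 0.05, 2 were higher and 3 lower, beside 10.6% and 7.11% of all genes. The 9 Schwann cell and myelin markers all had a log2 fold change below 0, with a median of -0.19. Of these, 0 were called in limma, beside 3.12% of all genes. At an unadjusted p under 0.05, 4 of the 9 were lower, beside 7.11% of all genes. Other lists also leaned below 0. Above 0 were 0 of 8 fibroblast, 0 of 6 smooth muscle, 1 of 8 endothelial and 1 of 8 macrophage markers. Their medians were -0.095, -0.16, -0.14 and -0.135. Above 0 were also 3 of 8 satellite glia, 2 of 6 blood cell and 3 of 3 spinal cord and oligodendrocyte markers. Of 3 tested spinal cord and oligodendrocyte markers Aqp4 was higher in FD (log2 fold change 0.39, limma adjusted p = 0.0411). Between 56.5% and 60.8% of probes were well above background on an array, and samples of a group correlated with r of 0.9915 to 0.9978 over the tested probes. The probe of Gla, the disrupted gene, was 0.981-fold in FD (limma adjusted p = 0.879). The sources used here do not give whether this probe lies in the disrupted stretch, so that it does not check the genotypes.

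The 250 bases before the transcription start are shown for 5 of the genes. Fos and Junb were picked for an r of 0.87 between them over the 8 samples, which rested on FD 4 and wildtype 2. Fosb was picked because it separated the groups by a narrow margin, and Dusp1 and Btg2 because they held a complete CRE. The stretches were taken from RefSeq on GRCm38.p6, where 7 of the 10 genes had an entry. The Fos stretch is chr12:85473640-85473889 on the plus strand, and the others lie on the minus strand at chr8:84978749-84978998 (Junb), chr7:19310046-19310295 (Fosb), chr17:26508473-26508722 (Dusp1) and chr1:134079156-134079405 (Btg2). Each is written 5′ to 3′ along its gene and ends at the base before the start. Capitals mark TGACG on either strand (CGTCA where it lies on the other strand), the complete CRE TGACGTCA, which contains it on both strands, and TATAAA.
Fos: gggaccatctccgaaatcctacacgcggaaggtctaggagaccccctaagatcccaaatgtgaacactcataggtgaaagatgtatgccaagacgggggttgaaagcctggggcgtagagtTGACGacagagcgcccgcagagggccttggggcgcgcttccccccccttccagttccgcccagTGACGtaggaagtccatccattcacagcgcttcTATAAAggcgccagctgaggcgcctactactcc
Junb: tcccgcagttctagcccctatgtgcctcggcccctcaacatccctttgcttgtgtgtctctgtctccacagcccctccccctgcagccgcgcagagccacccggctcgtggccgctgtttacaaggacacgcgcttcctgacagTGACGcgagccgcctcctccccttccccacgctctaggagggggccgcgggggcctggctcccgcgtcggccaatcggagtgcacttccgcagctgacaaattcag
Fosb: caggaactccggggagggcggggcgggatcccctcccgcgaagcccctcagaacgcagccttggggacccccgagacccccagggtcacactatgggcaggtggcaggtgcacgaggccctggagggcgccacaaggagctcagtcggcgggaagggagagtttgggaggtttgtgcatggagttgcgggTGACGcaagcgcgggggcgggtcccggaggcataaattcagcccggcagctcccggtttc
Dusp1: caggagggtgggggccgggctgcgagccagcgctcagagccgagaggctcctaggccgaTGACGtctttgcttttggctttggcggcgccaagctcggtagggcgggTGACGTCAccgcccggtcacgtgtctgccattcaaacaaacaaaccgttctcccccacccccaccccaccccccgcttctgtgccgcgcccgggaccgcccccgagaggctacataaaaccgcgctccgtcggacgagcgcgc
Btg2: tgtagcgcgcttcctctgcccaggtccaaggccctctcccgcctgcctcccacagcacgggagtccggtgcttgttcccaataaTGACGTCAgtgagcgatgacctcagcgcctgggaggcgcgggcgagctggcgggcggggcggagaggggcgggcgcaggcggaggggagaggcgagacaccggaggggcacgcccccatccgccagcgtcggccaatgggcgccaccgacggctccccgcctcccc
TGACG, which makes up the first bases of a CRE, was present in 7 of 7 stretches and in 17.8% of 32851 promoters of the same length. In Fos it lay 129 and 66 bases before the start, in Junb 106 bases and in Fosb 60 bases. The complete CRE was present in 2 of 7, at 143 bases in Dusp1 and 166 bases in Btg2, against 1.55% of all promoters. TATAAA was present in 1 of 7, at 33 bases in Fos, against 12.4%. The letters GCGGGGGCG, bound by Egr proteins, were present in 3 of 7 (Fosb, Nr4a1 and Klf4), against 2.57%. The CArG box was found in 0 of 7 within this window, against 1.47%. Bases farther out were not searched, and Egr1, Arc and Ier2 had no entry, so this does not show that the genes lack it. These matches are letters in a window, and no binding was measured.

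Of the 10 genes, 0 differed between FD and wildtype DRGs at an adjusted p under 0.05 in limma, where 3.07% of all tested probes were called, 1.96% higher and 1.11% lower in FD. At an unadjusted p under 0.05, 1 of 10 was higher (Fosb) and 0 were lower, where 10.7% of all probes were higher and 6.98% lower. The log2 fold change was above 0 for 6 of the 10, and its median was 0.09, beside 55.3% and 0.019 over all tested probes. In the plot of fold changes with their confidence intervals the 10 estimates lay between -0.08 and 0.26, and the intervals of Fos, Junb and Egr1 were the widest.

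**Figure D1:**
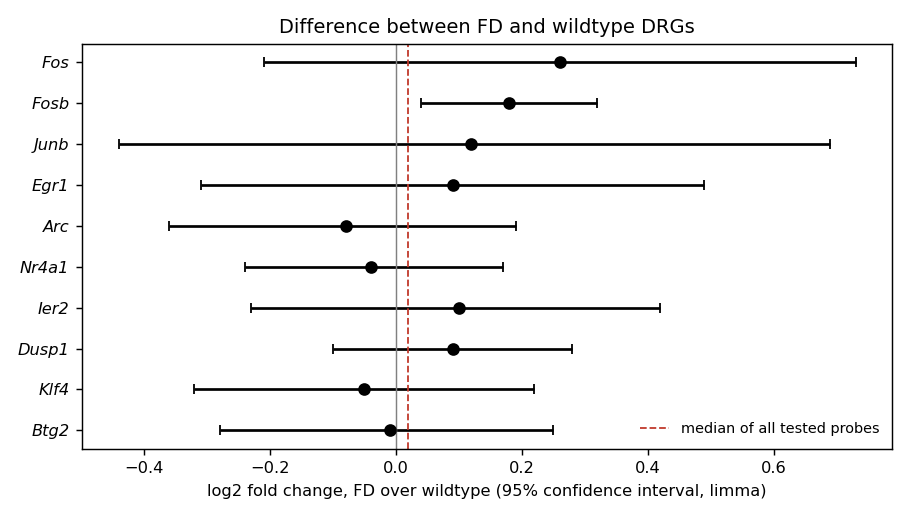
Log2 fold change of each gene, FD over wildtype, on the x axis, with its 95% confidence interval from limma (n = 4 samples per group). The intervals of 9 genes include 0, and that of Fosb, 0.04 to 0.32, does not. The dashed line is the median of all tested probes, 0.019.

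The AP-1 subunits were the genes of the set with the largest fold changes. Fos encodes the leucine zipper protein that pairs with Jun proteins to make AP-1 (probe at chr12:86817900-86817959, mm9, plus strand). Its log2 signal was 7.67, 7.80, 7.92 and 7.12 in FD samples 1 to 4, against 7.42, 6.87, 7.63 and 7.54 in wildtype samples 1 to 4. FD 1, 2 and 3 were above every wildtype sample, FD 4 was lower than 3 of the 4 wildtype samples, and the groups overlapped. The mean was 7.63 ± 0.35 in FD and 7.37 ± 0.34 in wildtype (SD, n = 4 each), 1.2-fold higher in FD with a 95% confidence interval of the fold change of 0.862 to 1.66 (adjusted p = 0.559 in limma). Without FD 4 the log2 fold change was 0.43 (limma adjusted p = 0.326), and without wildtype 2 it was 0.09.

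Fosb encodes a close relative of Fos whose truncated form, ΔFosB, is known for its stability after repeated stimulation (probe at chr7:19888168-19888227, minus strand). Its log2 signal was 6.53, 6.32, 6.48 and 6.45 in FD samples, against 6.24, 6.28, 6.31 and 6.22 in wildtype samples. All 4 FD samples were above all 4 wildtype samples, by a margin of 6.32 in FD 2 against 6.31 in wildtype 3. Among all tested probes, 8.3% had groups that did not overlap with FD the higher, and 5.1% with FD the lower. The mean was 6.44 ± 0.089 in FD and 6.26 ± 0.041 in wildtype (SD, n = 4 each), a log2 fold change of 0.18 ± 0.061 (SE) or 1.13-fold. The exact permutation p was 0.0286, two-sided, the smallest that 4 against 4 samples allow, and the limma p was 0.0165, with an adjusted p of 0.168. The SD of Fosb within groups, 0.069, was larger than that of 0.658% of the 4104 probes within 0.5 log2 units of its brightness, and limma with a prior that follows brightness gave an adjusted p of 0.414. The log2 fold change was 0.12 with 75th percentile scaling and 0.06 with normexp background correction (limma adjusted p = 0.394 and 0.584).

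Junb encodes the Jun protein that pairs with Fos proteins and restrains c-Jun (probe at chr8:87501881-87501940, minus strand). Its log2 signal was 5.45, 5.56, 6.21 and 5.06 in FD samples, against 5.68, 4.95, 5.62 and 5.54 in wildtype samples. FD 3 was the highest of the 8 samples and wildtype 2 the lowest, and the groups overlapped. The mean was 5.57 ± 0.48 in FD and 5.45 ± 0.34 in wildtype (SD, n = 4 each), a log2 fold change of 0.12 with an interval of -0.44 to 0.69 (limma adjusted p = 0.827). Junb was dim: the lowest signal called well above background on an array was 4.22 to 4.94, and the 4.95 of wildtype 2 stood beside 4.94 on that array.

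Egr1 encodes a zinc finger transcription factor long used as a marker of neuronal activation. The log2 signal of Egr1 was 9.86, 9.89, 10.24 and 9.35 in FD samples, against 9.80, 9.48, 9.90 and 9.79 in wildtype samples. Both the highest sample, FD 3, and the lowest, FD 4, were from FD mice, so that the FD samples spanned all of the wildtype samples. The mean was 9.84 ± 0.36 in FD and 9.74 ± 0.18 in wildtype (SD, n = 4 each), a log2 fold change of 0.09 with an interval of -0.31 to 0.49 (limma adjusted p = 0.821). Without FD 4 it was 0.25 and without FD 3 it was -0.04, and for Junb these values were 0.29 and -0.09.

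**Figure D2:**
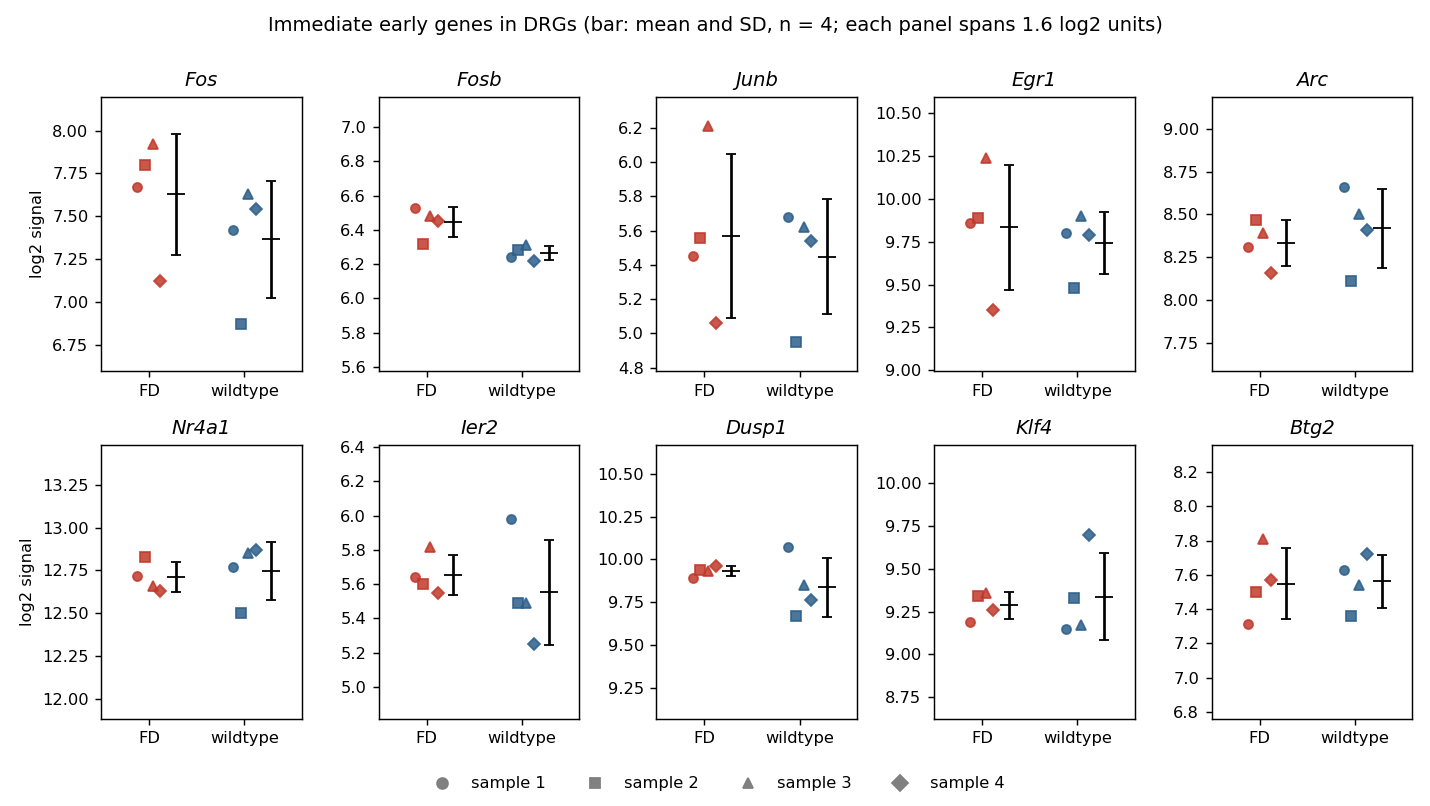
Quantile normalized log2 signal (y axis) of the 10 genes in each sample, FD on the left and wildtype on the right of each panel. Symbols mark sample 1 to 4 of a group, bars the mean and SD (n = 4). Every panel spans the same number of log2 units, and the levels of different panels come from different probes and are not comparable. Fos and Junb spread widely in both groups and Egr1 in FD, with an SD of 0.36 in FD and 0.18 in wildtype, and Fosb spread little in either.

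Nr4a1 and Klf4 are the other transcription factors of the set. Nr4a1 encodes the orphan nuclear receptor Nur77 (probe at chr15:101105071-101105130, plus strand). The Nr4a1 probe had a log2 signal of 12.72, 12.83, 12.66 and 12.63 in FD samples, against 12.77, 12.50, 12.85 and 12.87 in wildtype samples. Wildtype 2 was again the lowest, and all 4 FD samples lay within the wildtype range. The mean was 12.71 ± 0.085 in FD and 12.75 ± 0.17 in wildtype, 0.974-fold (limma adjusted p = 0.862). Klf4, a Krüppel-like factor known from pluripotency and from vessel and immune cells (probe at chr4:55540167-55540226, minus strand), had 9.19, 9.34, 9.36 and 9.26 in FD samples, against 9.15, 9.33, 9.17 and 9.70 in wildtype samples. Wildtype 4 was the highest of the 8, and the other 7 lay between 9.15 and 9.36. The Klf4 log2 fold change was -0.05 with an interval of -0.32 to 0.22 (limma adjusted p = 0.866).

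Arc encodes a protein that, in neurons of the brain, drives AMPA receptor endocytosis at synapses (probe at chr15:74499592-74499651, minus strand). For Arc the log2 signal was 8.31, 8.47, 8.39 and 8.16 in FD samples, against 8.66, 8.11, 8.50 and 8.41 in wildtype samples. The highest and the lowest were both wildtype. The log2 fold change was -0.08 with an interval of -0.36 to 0.19 (limma adjusted p = 0.754). It was below 0 in all 20 alternative fits and slide rows, between -0.26 and -0.01. These settings reuse the same 8 samples, so their shared sign adds no evidence of a difference. Fosb was above 0 in all 20, between 0.06 and 0.22.

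Dusp1, Btg2 and Ier2 act in feedback or in the growth response. Dusp1 encodes the phosphatase that inactivates MAP kinases (annotated part of the probe at chr17:26642526-26642536, minus strand). Its log2 signal was 9.89, 9.94, 9.93 and 9.96 in FD samples, against 10.07, 9.67, 9.85 and 9.76 in wildtype samples. The FD samples lay close together inside the wildtype range, with an SD of 0.031 in FD and 0.17 in wildtype. The Dusp1 log2 fold change was 0.09 with an interval of -0.1 to 0.28 (limma adjusted p = 0.615). Btg2, an antiproliferative protein that recruits the CCR4-NOT deadenylase (probe at chr1:135972094-135972153, minus strand), had 7.31, 7.50, 7.81 and 7.57 in FD samples, against 7.63, 7.36, 7.54 and 7.72 in wildtype samples. Here the FD samples held both the highest and the lowest value, and the log2 fold change was -0.01 with an interval of -0.28 to 0.25 (limma adjusted p = 0.965). Ier2, a nuclear protein of the early growth response (probe at chr8:87186214-87186273, minus strand), had 5.64, 5.60, 5.82 and 5.55 in FD samples, against 5.98, 5.49, 5.49 and 5.25 in wildtype samples. Ier2 was highest in wildtype 1 and otherwise higher in all 4 FD samples than in wildtype 2, 3 and 4, with a log2 fold change of 0.10 and an interval of -0.23 to 0.42 (limma adjusted p = 0.765).

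For Fos, Junb and Egr1 the SD within groups, 0.35, 0.41 and 0.29, was larger than the log2 difference between the group means, 0.26, 0.12 and 0.09, and for Fosb it was smaller, 0.069 against 0.18. Fos covered a range of 1.05 log2 units over the 8 samples, or 2.06-fold, Junb 1.26 units, or 2.4-fold, and Egr1 0.88 units, or 1.84-fold. The SD of Fos within groups, 0.35, was above that of 93.6% of probes of like brightness, and that of Junb was above 90.9% and that of Egr1 above 96.4% of theirs. The Fos probe was printed as 10 spots on each array, whose spread covers the error of a spot but not that of labelling or hybridization. The SD over the spots of an array was 0.099 to 0.14. Before normalization the spots of FD 1 to 4 averaged 7.72, 7.98, 7.76 and 7.21, against 7.19, 6.84, 7.70 and 7.62 for wildtype 1 to 4. FD 4 and wildtype 2 were low in Fos before and after normalization. Wildtype 1, the dimmest array, was at 7.19 before and at 7.42 after it.

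**Figure D3:**
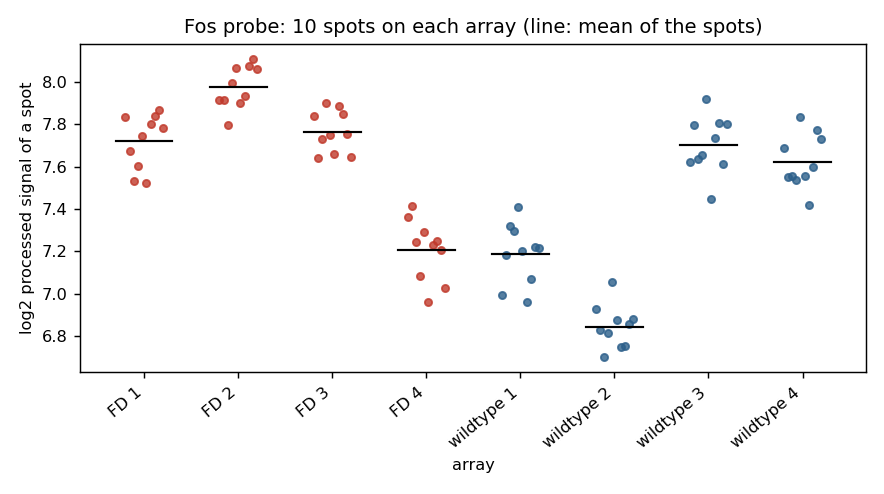
Log2 processed signal (y axis, before normalization between arrays) of the 10 spots of the Fos probe on each array (x axis, FD first), with the mean of the spots as a line. The spots of an array had an SD of 0.099 to 0.14, and the means of the arrays lay between 6.84 (wildtype 2) and 7.98 (FD 2).

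The samples with much Fos also had much Egr1. Over the 8 samples Pearson's r of Fos with Egr1 was 0.91 (exact permutation p = 0.00228, adjusted over 9 relations 0.0205) and Spearman's rho was 0.88 (exact permutation p = 0.00724, adjusted 0.0652). After leaving out FD 4 and wildtype 2, the samples farthest from the Fos median, r was 0.84. With Junb, r was 0.87 (exact permutation p = 0.00632, adjusted 0.0284) and rho was 0.64 (exact permutation p = 0.0962, adjusted 0.433), and without those samples r was 0.57, so that the relation of Fos with Junb rested on them. Of the 9 relations these 2 passed an adjusted p under 0.05 by r, and 0 passed by rho, each by an exact permutation test. With Arc and Nr4a1 r was 0.62 and 0.64, and -0.56 and -0.47 without those samples. The r of Fos with Fosb was 0.29, with Btg2 0.41, with Dusp1 0.38, with Ier2 0.25 and with Klf4 0.06. On deviations from the group mean, r was 0.93 for Egr1 and 0.88 for Junb, with rho 0.90 and 0.86. Without FD 4 and wildtype 2 these r were 0.77 and 0.64. Deviations sum to 0 within each group, so a permutation over all 8 samples gives no exact p for them, and none is given. Each slide row held 4 samples, too few for an r within a row.

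The mean deviation of the 10 genes from their 8-sample means was 0, 0.06, 0.22 and -0.15 in FD 1 to 4, against 0.08, -0.26, 0.03 and 0.02 in wildtype 1 to 4. In FD 3, 9 of the 10 genes were above their mean and 4 were at their highest, and in wildtype 2, 9 were below and 5 were at their lowest. With 75th percentile scaling the mean deviation of FD 3 was 0.20 and that of wildtype 2 was -0.22. The 75th percentile of the processed signal was 764.5 in FD 3, 866.3 in FD 4 and 777.4 in wildtype 2, and 700.5 to 959.9 in the other 5 samples. The share of probes well above background was 58.1% in FD 3, 58.5% in FD 4 and 56.5% in wildtype 2, and 57.2% to 60.8% in the others. Schwann cell and myelin markers (9 of 9 tested) had mean deviations of -0.07 in FD 3, -0.20 in FD 4 and -0.09 in wildtype 2, and -0.04 to 0.19 in the other 5 samples. Macrophage markers (8 of 8 tested) had -0.04 in FD 3, 0.18 in FD 4 and 0.17 in wildtype 2, and -0.30 to 0.19 in the others. Blood cell markers (6 of 7 tested) had -0.09 in FD 3, 0.29 in FD 4 and 0.52 in wildtype 2, and -0.43 to 0.28 in the others. The genes of this list did not move together, so its mean does not rank the samples by blood content. S100a8 had a log2 signal of 14.56 in wildtype 2 and 11.08 in wildtype 3, and the hemoglobin gene Hbb-b1 had 14.47 and 15.01. The part of these array measures and cell types in the levels of the early genes was not tested.

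**Figure D4:**
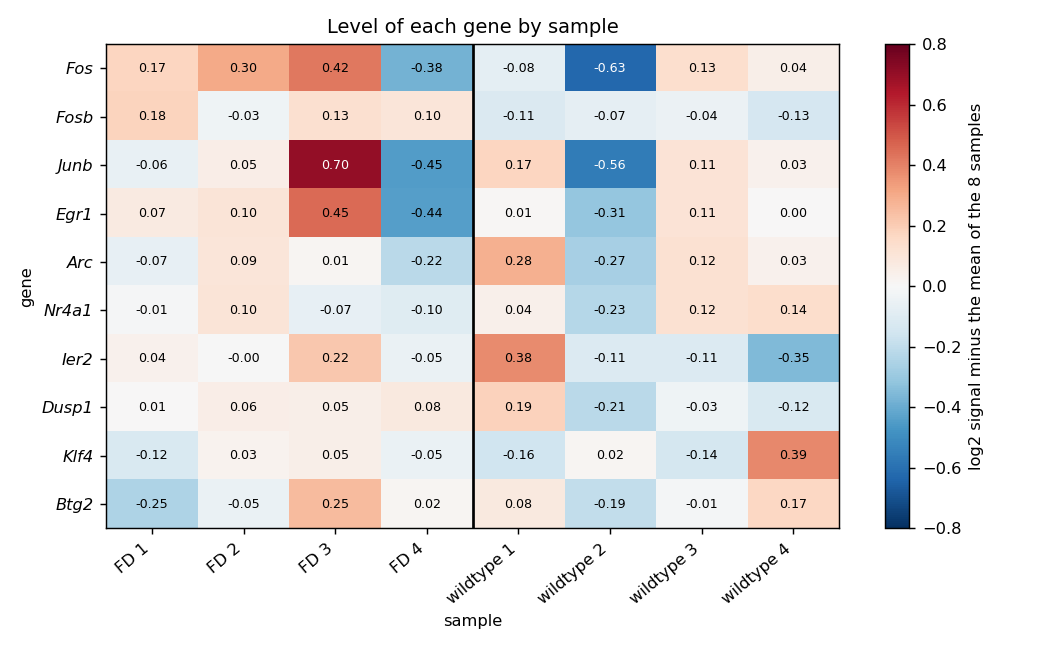
Deviation of each gene's log2 signal from its mean over the 8 samples (color and printed value), with genes as rows and samples as columns, FD left of the line. Fos, Junb and Egr1 were high in FD 3 and low in FD 4 and wildtype 2, and Fosb was not.

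Followed one by one, Junb tracked the rest of the set most closely. On deviations from the group means over the 8 samples, its r with the mean of the other 9 genes was 0.96, followed by 0.88 for Egr1, 0.87 for Fos and 0.82 for Arc, and at the other end stood -0.05 for Klf4 and -0.16 for Fosb. Of 21053 other genes, the 6 whose deviations were most like the mean of the 10 were Abhd17c (r = 0.98), Wfikkn1 (0.97), Npas3 (0.967), Cetn1 (0.963), the transcript TC1653260 (0.962) and Pllp (0.96). These 6 were picked as the most similar of all over 8 samples of 1 slide, and 7.07% of all genes had an r above 0.7. Among other immediate early genes Myc came closest (r = 0.911, rank 94), then Nfil3 (0.85, rank 295), and Jun had 0.685 and Jund 0.717. Gadd45g, at the other end, had -0.792. These r describe likeness of pattern and carry no test.

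The groups were unevenly placed on the slide, with FD 1, 2 and 3 beside wildtype 1 in the upper row and FD 4 beside wildtype 2, 3 and 4 in the lower row. Within the upper row the log2 fold change was 0.37 for Fos, 0.06 for Junb and 0.19 for Egr1, and within the lower row it was -0.23, -0.31 and -0.37, each with 1 sample on one side. With the row as a block it was 0.07 for Fos, -0.12 for Junb and -0.09 for Egr1. Fosb was 0.21 in the upper row, 0.18 in the lower row and 0.19 with the block (limma adjusted p = 0.171 with the block). The values within a row are given with no test.

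Among 50 tested of 56 other immediate early genes, 2 were called higher in FD and 0 lower, where 2.02% of all genes by their brightest probe were called higher and 1.1% lower. At an unadjusted p under 0.05, 5 were higher and 2 lower, beside 10.6% and 7.11% of all genes. The list was chosen with earlier results of these data known, so these counts do not test it. Atf3, the bZIP transcription factor known as a marker of injured sensory neurons, had log2 signals of 10.45, 10.67, 10.68 and 11.13 in FD samples, against 9.61, 9.09, 9.21 and 9.29 in wildtype samples. It did not overlap between the groups and was 2.7-fold higher in FD (log2 fold change 1.44 ± 0.16 SE, limma adjusted p = 0.00193). It was called in all 18 alternative fits over all probes. Atf3 was highest in FD 4, where Fos, Junb and Egr1 were low, and its deviations from the group means had an r of -0.002 with the mean of the 10 genes. Gadd45g, a stress protein of the growth arrest and DNA damage family, had 13.18, 13.11, 13.07 and 13.26 in FD samples, against 12.84, 12.89, 12.89 and 12.85 in wildtype samples. It was 1.22-fold higher in FD (limma adjusted p = 0.0387), and the call was held in 7 of 18 alternative fits and lost when any 1 sample was left out (limma adjusted p = 0.0534 to 0.113).

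**Figure D5:**
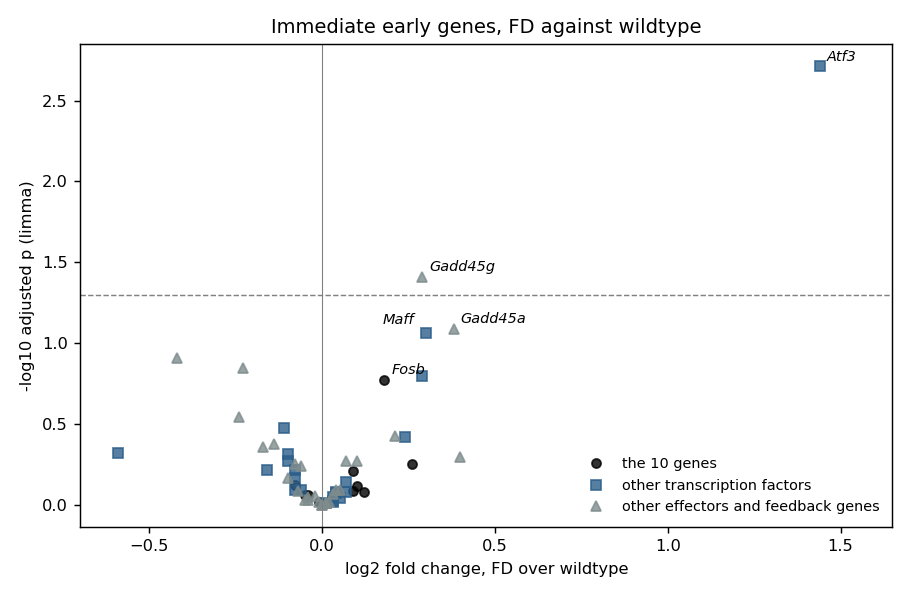
Log2 fold change, FD over wildtype (x axis), and -log10 of the limma adjusted p (y axis) for the 10 genes and the 50 other immediate early genes tested. The dashed line marks an adjusted p of 0.05. Atf3 and Gadd45g lie above it, and the 10 genes lie below it between -0.08 and 0.26.

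The closest other early genes did not pass the test. Gadd45a had a log2 fold change of 0.38 (limma adjusted p = 0.0815), Maff, a small Maf protein, 0.30 (0.0867), Bhlhe40, a clock-linked repressor, 0.29 (0.159), Sik1, the salt-inducible kinase, -0.42 (0.123) and Arl4d, a small GTPase, -0.23 (0.143). With the slide row as a block Gadd45a (0.50, limma adjusted p = 0.0224) and Sik1 (-0.59, limma adjusted p = 0.0191) were called. Gadd45a was also called with a prior that follows brightness (limma adjusted p = 0.0408), Bhlhe40 with array weights (0.0209) and without wildtype 1 (0.0358), and Arl4d with array weights (0.0354). Over the 18 alternative fits the limma adjusted p reached 0.184 for Gadd45a, 0.259 for Sik1, 0.324 for Bhlhe40 and 0.299 for Arl4d. Array weights called 1306 probes higher and 796 lower, beside 578 and 326 without them. The AP-1, Egr and Nr4a relatives were near 0, with a log2 fold change of -0.08 for Jun, -0.08 for Jund, -0.10 for Fosl2, -0.06 for Egr2 and -0.16 for Nr4a2. Fosl1, Egr3, Egr4, Nr4a3, Zfp36 and Ptgs2 were not well above background on all 8 arrays and were not tested. Transcription factors (22 tested) had a median log2 fold change of 0.03 and effectors (28 tested) -0.005.

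Of the kinases and transcription factors that act upstream of these genes, 0 of 38 were called in limma, beside 3.12% of all genes. At an unadjusted p under 0.05, 0 of them were higher and 5 lower, beside 10.6% and 7.11% of all genes. Creb1 had a log2 fold change of -0.39 on its brightest probe (limma adjusted p = 0.116) and 0.10 on the other probe. Elk3, a ternary complex factor, had -0.29 (limma adjusted p = 0.127). Creb1 was called with array weights (limma adjusted p = 0.0204) and without wildtype 1 (0.0392), and Elk3 with array weights (0.0416). Over the 18 alternative fits the limma adjusted p reached 0.276 for Creb1 and 0.283 for Elk3. Among 17 tested partners and substrates of the proteins of the set, 2 were called higher and 0 lower, beside 2.02% and 1.1% of all genes. This list was chosen with earlier results of these data known, so the count does not test it. Mapk8, which encodes the Jun kinase JNK1, was 1.63-fold higher (limma adjusted p = 0.000262) on its brightest probe, while its other probes had -0.28 and -0.12 and were not called. Of 45 other genes tested within 2 Mb of Mapk8, 6 were called, or 13.3%, beside 3.12% of all genes, and for the 10 early genes this share was 0% to 6.25%. Sh3gl3, an endophilin of the family that binds Arc protein, was 1.3-fold higher (limma adjusted p = 0.0184), called in 13 of 18 alternative fits. Among the factors that act on AU-rich mRNAs such as that of Fos, 0 of 7 tested were called in limma, beside 3.12% of all genes. At an unadjusted p under 0.05, 0 were higher and 1 lower (Zfp36l1, log2 fold change -0.21), beside 10.6% and 7.11% of all genes.

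Genes that follow handling, heat or stress hormone were set beside the early genes. These lists were chosen with earlier results of these data known, so their counts do not test the lists. Of 11 tested heat shock genes 0 were called in limma, beside 3.12% of all genes, and their median log2 fold change was 0.05. There was 1 higher and 0 lower at an unadjusted p under 0.05, beside 10.6% and 7.11% of all genes. The 1 was Hmox1, heme oxygenase 1, with 11.50, 11.49, 10.67 and 11.52 in FD samples, against 10.85, 10.90, 10.82 and 10.76 in wildtype samples. FD 3 was the lowest of the 8 samples and the other 3 FD samples were above every wildtype sample. With all 8 samples the log2 fold change was 0.46 on the brightest probe (limma adjusted p = 0.228) and 0.35 on the other (0.329). On the brightest probe it was 0.40 without FD 1 or FD 2 (limma adjusted p = 0.392 and 0.432). Without FD 3 it was 0.67 (limma adjusted p = 0.00222). FD 3 was the sample that stood apart in its group, so this last p is no fair test of the groups. Of 12 glucocorticoid response genes 2 were called higher and 0 lower, beside 2.02% and 1.1% of all genes. Both were metallothioneins, which bind zinc and copper and also respond to metals. Mt1 was 1.59-fold higher in FD (limma adjusted p = 0.000891) and Mt2 1.48-fold (0.00144), each without overlap between groups. At an unadjusted p under 0.05, 3 of the 12 were higher and 0 lower, beside 10.6% and 7.11% of all genes. The third was Sgk1, a serum and glucocorticoid regulated kinase, which was 1.22-fold higher in FD (limma adjusted p = 0.121). Sgk1 was called with the slide row as a block (log2 fold change 0.38, limma adjusted p = 0.0351). Over the 18 alternative fits its limma adjusted p reached 0.258. Nfkbia, the inhibitor of NF-κB, had a log2 fold change of -0.23 (limma adjusted p = 0.291). The median of the 12 was -0.005.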

How the data were processed

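RNA of 8 DRG samples, 4 FD and 4 wildtype, was measured on Agilent 8x60K arrays in 1 color. Spot values were deposited as intensity, corrected for background and spatial trend by Agilent Feature Extraction 10.7.3.1. The authors' deposited table is on the log2 scale and was quantile normalized in GeneSpring. Here outlier spots (93 to 221 per array) were left out, log2 processed signals were averaged per probe, and 55681 probes were quantile normalized. The 29432 probes well above background on all 8 arrays were tested with limma 3.58.1 in R 4.3.3, with Benjamini-Hochberg adjustment over all of them. A call is an adjusted p under 0.05. A gene with several probes was taken by its brightest. Correlations of Fos with the other genes over the samples had exact permutation p-values (SciPy 1.17.1), except on deviations from the group mean. Of the other lists the genes called and up to 4 with the smallest p were considered, and Jun, Jund, Fosl2, Egr2, Nr4a2 and the genes not tested were added as relatives with their values known. The genes and lists were chosen with earlier results of these data known. Alternatives were another scaling, background correction, filter, test, block or weighting, and leaving out each sample. The number of arrays limits the precision.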

Additional observations from a re-analysis of the deposited data

Results flagged for a closer look

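In 76 groups of 4 samples (the 10 genes and, from the other lists, the genes called or with the smallest p, in FD and in wildtype), 4 held a sample whose gap to the nearest other was past Dixon's critical value for 4 samples, where chance gives about 1 in 20. None of the 4 was one of the 10 early genes. Nfkbia had a log2 signal of 12.17 in FD 4 and 11.76 to 11.82 in the other FD samples. Nfil3 had 9.90 in FD 3 and 9.84 in each of the other FD samples. Sik1 had 6.86 in wildtype 1 and 6.50 in each of the other wildtype samples. Hmox1 had 10.67 in FD 3 and 11.49 to 11.52 in the other FD samples.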

How the results depend on the processing

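None of the 10 early genes was called in any of the 18 alternative fits over all probes, where their adjusted p lay between 0.128 and 0.997. The median log2 fold change of the 10 was 0.091, 0.062 with 75th percentile scaling, 0.043 with normexp correction, -0.05 with the slide row as a block and -0.032 to 0.14 with 1 sample left out. Over all probes 578 were called higher and 326 lower. These counts were 350 and 206 with no filter on background, 170 and 96 by the methods' t-test after Benjamini-Hochberg, 1306 and 796 with array weights, and 254 to 653 and 160 to 385 with 1 sample left out. At the methods' threshold (p up to 0.01 before adjustment and a change of 1.2-fold or more) the methods' t-test found 658 higher and 389 lower, with 0 of the 10 genes. Of the other immediate early genes, 2 were called higher and 0 lower. The number higher was 1 with no filter and by the methods' t-test, 4 with array weights and 1 to 3 with 1 sample left out, and 1 was lower with the slide row as a block and with array weights. The number of genes whose Pearson's r with Fos passed was 2. With 75th percentile scaling it was 1, Egr1 (r = 0.92, exact permutation p adjusted 0.0192). Junb did not pass there (r = 0.82, exact permutation p adjusted 0.063). The causes of these changes were not tested.

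Samples of the same number did not deviate together (r between -0.245 and 0.063). The sources used here do not say whether the numbers pair the samples, and these r cannot decide it. With the replicate number as a block 170 probes were higher and 114 lower, 1 of the other immediate early genes was higher (Atf3), and of the 10 early genes none was called. Precision was limited by 4 pools per group, and for Junb and Ier2 by signals near background.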
